A study of Mus musculus with 12 samples.

Results

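Translation initiation factors were followed through 12 mouse stem cell samples in which the RNA-binding proteins Lin28a, Lin28b, both or neither had been lost. The members are all rows of the deposited gene-level array table whose symbol begins with Eif1, Eif2b, Eif2s, Eif3, Eif4, Eif5 or Eif6, except the sex-linked pair Eif2s3x and Eif2s3y. Such rows, called entries here, numbered 49 of 30854 in the table and stand for 43 genes.

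Initiation factors bring the small ribosomal subunit, the initiator tRNA and the mRNA together and set the start codon. eIF4E binds the mRNA cap, eIF4G bridges it to the ribosome-bound eIF3, eIF4A unwinds the leader, and eIF2 carries the initiator tRNA until eIF5 triggers its release and eIF2B recharges it. In stem cells the rate of initiation is kept in check by the eIF4E-binding proteins and by stress kinases acting on eIF2, and Lin28 proteins are known for binding mRNAs and for holding back the microRNA let-7.

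The study compared wild type with loss of Lin28a, of Lin28b and of both, 3 samples to a group and 1 Illumina WG-6 BeadChip array per sample. The titles give each genotype 1 line, so line and genotype cannot be told apart, and nothing says that replicates came from separate cultures, in which case p-values measure only the spread between these samples. The tissue is labelled embryonic stem cells, while the design text calls the controls iPS cells without loss of either gene, and how the genes were lost is not given in the labels. All 4 groups grew in the same serum medium with Lif. By the array positions in the labels, wild type and Lin28a loss shared 1 chip and Lin28b loss and double loss the other. Lin28a loss minus wild type and double loss minus Lin28b loss were therefore each read within a chip, and both give the effect of losing Lin28a, first with Lin28b intact and then without it. Lin28b loss and double loss against wild type crossed chips, where chip, line and genotype cannot be told apart. The interaction is the second Lin28a effect minus the first, in which an additive chip effect cancels.

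Lin28a (named Lin28 in the file) read a mean log2 intensity of 7.97 ± 0.10 in wild type and 7.03 ± 0.17 in Lin28b loss. It read 5.66 ± 0.078 where Lin28a alone was lost and 5.48 ± 0.17 where both were (SD, n = 3). Lin28a was above background on all 3 arrays of every group, and its 2 within-chip falls started from unequal levels. Neither of the 2 entries of Lin28b was above background in any group, so these signals give no check of its loss. Mean raw signal ran from 325.4 to 596.7 per array, with 9377 to 10773 entries above background. Above background means a detection p under 0.01 in the deposited table. All 9 stem cell markers examined, such as Pou5f1 and Nanog, were above background in every group. They were not level: 3 of them fell in Lin28a loss, Zfp42 (-2.10 ± 0.11, adjusted p = 3.00e-08), Utf1 (-0.67 ± 0.12, adjusted p = 1.00e-03) and Sox2 (-0.63 ± 0.14, adjusted p = 0.0040; log2 fold change ± SE, limma). Zfp42 was also lower in Lin28b loss than in wild type (-1.70 ± 0.11, adjusted p = 2.44e-07) and rose in double loss against Lin28b loss (1.92 ± 0.11, adjusted p = 1.24e-07), where 1 of the 9 rose and 3 fell. No fibroblast entry of 8 had a detection p under 0.01 on any array (summed raw signals of 477.1 to 642.2 in wild type, 666.3 to 769.5 in Lin28a loss, 394.8 to 408.2 in Lin28b loss and 386.9 to 498.8 in double loss). Thy1, on that list, combines several probes, for which this detection p can miss bright signals. It was not tested, and its mean log2 intensity was 6.75 ± 0.086 in wild type against 8.12 ± 0.18 in Lin28a loss, and 6.26 ± 0.10 in Lin28b loss against 6.80 ± 0.078 in double loss (SD, n = 3). Of 7 trophoblast entries 4 were tested, and all 4 were lower in Lin28a loss than in wild type. Their 7 raw signals summed to 1878 to 3373 in wild type, 1205 to 1699 in Lin28a loss, 1143 to 1220 in Lin28b loss and 711.4 to 1128 in double loss, Elf5 being above background on no array. Of 6 primitive endoderm entries Sparc and Lama1 were tested. Sparc rose in Lin28a loss (1.40 ± 0.084, adjusted p = 7.37e-08), was higher in Lin28b loss than in wild type (1.52 ± 0.084, adjusted p = 4.03e-08) and fell in double loss against Lin28b loss (-0.92 ± 0.084, adjusted p = 4.00e-06). Lama1 changed in none of the comparisons, and Gata4 and Sox17 were above background on no array. Their 6 signals summed to 1925 to 2674 in wild type, 2545 to 3386 in Lin28a loss, 2115 to 2435 in Lin28b loss and 1620 to 2485 in double loss. The part of these cells in the results below was not tested.

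Of the 49 entries, 37 entries of 34 genes passed the rule for testing, above background on all 3 arrays of at least 1 group, and 33 were above background on all 12 arrays. Among those that passed on fewer, Eif3h was above background on 2 of 3 arrays in wild type and in Lin28b loss and on 3 in the others, Eif4a2 on 3 in wild type and Lin28b loss and on 2 in the others, and Eif4g2 on all but Lin28b-loss replicate 2. Just outside stood Eif4e3, a cap-binding protein, above background on 2 wild-type and 2 Lin28a-loss arrays, and the second entry of Eif3a (Eif3s10), on 1 array of each of those groups. The other 10 untested entries were above background on no array: Eif1ax, Eif2s1, Eif3a, Eif3e, the second entries of Eif3h and Eif3i, Eif4e1b, Eif4ebp3, Eif5a2 and Eif5b. This does not place all of them near background. Eif3a, the scaffold of eIF3, read raw signals of 2683, 1043 and 1071 in wild type, and its second entry 118, 71.3 and 67.5. Eif3a is among 7 entries that combine several probes, for which the detection p in the file can miss bright signals (the others are Eif3b, Eif4a2, Eif4e1b, Eif4e3, Eif4g2 and Eif5b). In bulk RNA, fewer cells of a kind and less RNA per cell cannot be told apart.

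Over the 4 groups, the group means of 24 of the 37 tested entries (64.9%) lay within 0.5 of each other on the log2 scale, where those of 40.7% of all entries tested did. Those of 4 entries (10.8%, against 20.6%) lay more than 1 apart: Eif4g2, Eif5, Eif4e2 by its entry of that name and, by measured values, Eif4e. Eif4e was not above background in double loss, and with that group at its floor the range was 0.62. An entry is said to have risen, fallen or changed where limma's adjusted p was under 0.05. By this measure 23 entries (62.2%) changed in at least 1 of the 5 comparisons, against 71.8% of all entries tested, and 14 in none.

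With Lin28b intact, more initiation factors fell than rose in Lin28a loss, a split on 1 line per genotype. Of the 37 entries 13 changed, or 35.1%, against 36.8% of all 10372 entries tested. Those that rose were Eif1b, Eif2b3, Eif2s2 and Eif4ebp1, 4 entries or 10.8%, against 18.2% of all entries. Those that fell were 9 entries or 24.3%, against 18.6%: Eif5, Eif4g2, Eif2b2, both entries of Eif4e2, Eif6, Eif4a3, Eif3b and Eif2b1. None changed by 2-fold or more, where 5.34% of all entries did. The median log2 fold change of the 37 was -0.097, beside -0.03 over all entries, and the median absolute change was 0.23 beside 0.25. The split depended on the processing. Array weights gave 6 risen and 9 fallen (2574 and 2860 of all entries). Leaving out the brightest array of wild type, Lin28a loss and double loss, chosen after seeing the data, gave 8 and 10 (2459 and 2685). Median scaling in place of quantile normalization gave 0 and 2 (1019 and 441).

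Losing Lin28a in cells without Lin28b gave 8 changed entries, or 21.6%, against 36.5% of all entries. Those that rose were 6, or 16.2% against 16.9%: Eif1b, Eif3j1, Eif3l, Eif4g2, Eif1a and Eif2b4. Only Eif4e and Eif4g1 fell, 5.41% of the members against 19.5% of all entries. Eif4e was the 1 entry, or 2.7%, whose measured difference reached 2-fold, where 4.91% of all entries did. At its bound, given below, it did not, which leaves 0. The median log2 fold change was 0.045 beside -0.011 over all entries, and the median absolute change 0.13 beside 0.25.

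Eif1b was the only entry that rose in both of these comparisons, and Eif4g2 the only one that changed in both in opposite directions. With the chip as a block over all 12 arrays, the effect of Lin28a loss was called for 3 of the 37 entries (8.11%), against 21.8% of all entries: Eif1b (log2 fold change 0.64 ± 0.073, adjusted p = 1.10e-04), Eif4e (adjusted p = 0.020) and Eif5a (-0.20 ± 0.063, adjusted p = 0.039). For Eif4e no size is given, since that fit averages 2 unequal effects, of which 1 is only a bound.

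**Figure D1:**
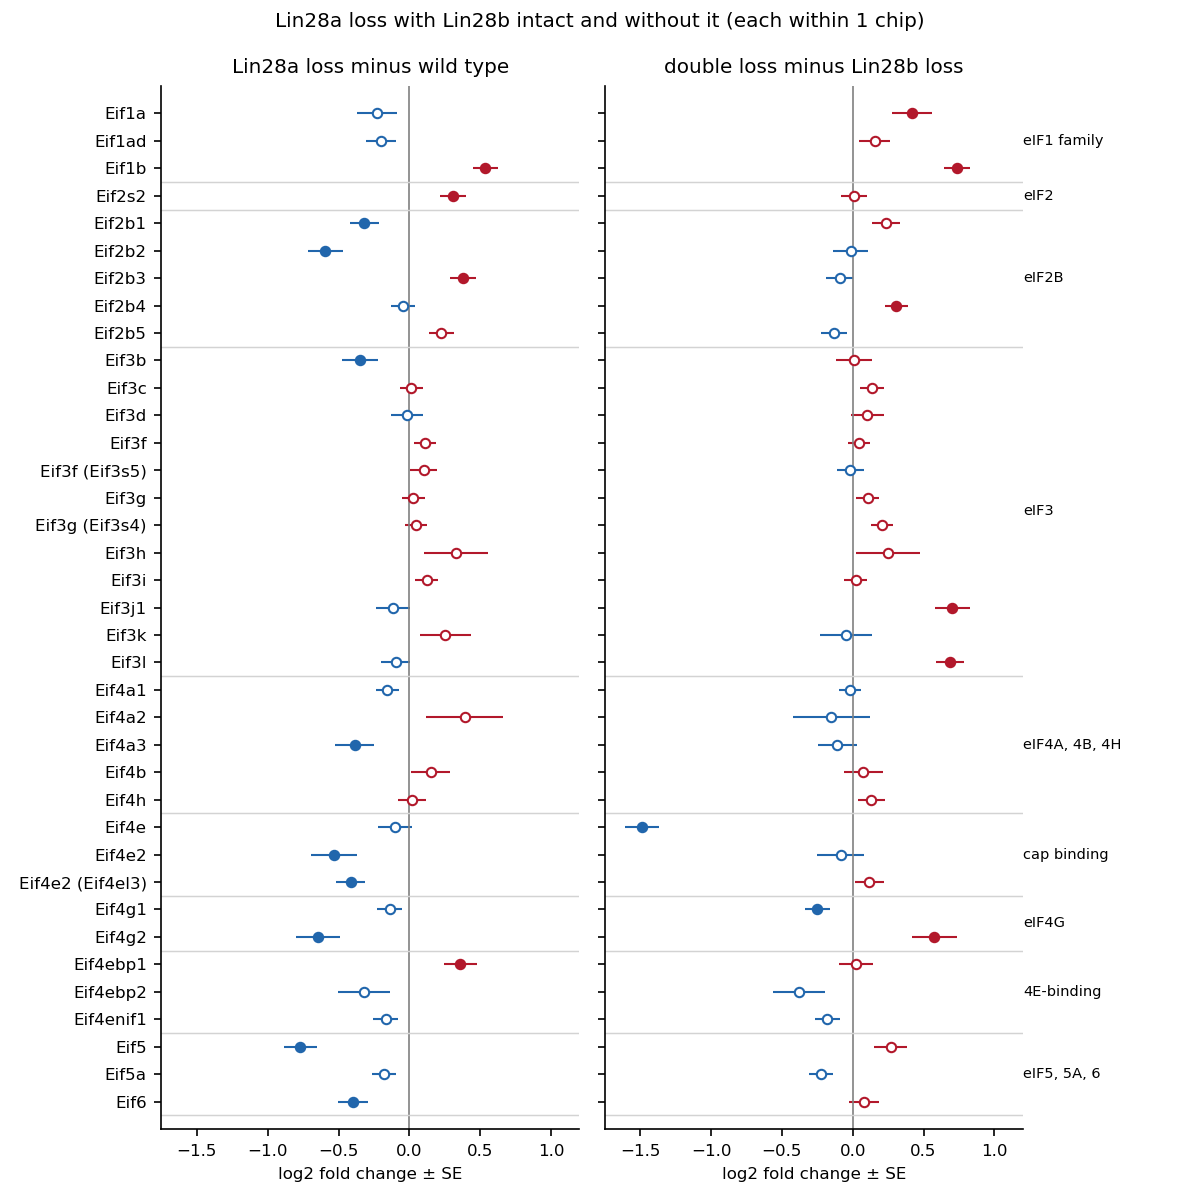
Log2 fold change ± SE (horizontal axis) of the 37 tested entries of initiation factors in Lin28a loss minus wild type (left) and double loss minus Lin28b loss (right), grouped by complex. Filled points passed the test (adjusted p under 0.05), open points did not; red is above 0 and blue below, and Eif4e at -1.49 on the right lies farthest from 0.

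The 2 comparisons across chips share the wild-type samples and are given side by side. In Lin28b loss 7 entries differed from wild type, or 18.9%, against 36.1% of all entries. Eif4e2 by its entry of that name and Eif4g1 were higher, 5.41% against 18.9%. Eif4ebp2, Eif3c, Eif1b, Eif1ad and Eif2b3 were lower, 13.5% against 17.2%. In double loss 9 entries differed, or 24.3%, against 37% of all entries, with Eif3j1, Eif3l, Eif5, Eif1b and Eif2b4 higher (13.5% against 18%) and Eif4e, Eif4ebp2, Eif3c and Eif2b3 lower (10.8% against 19%). By measured values 0 entries were 2-fold or more apart in Lin28b loss and 1, Eif4e, in double loss (2.7%), where 4.86% and 5.58% of all entries were, and at its bound Eif4e was not. Same-numbered arrays of wild type and double loss deviated together in all 3 pairs. With the replicate number as a block over these 6 arrays, a setting chosen after seeing the data, the 9 calls in double loss held. Eif4g2 (0.40 ± 0.094, limma adjusted p = 0.0081) and Eif4e2 by its entry of that name (0.41 ± 0.10, adjusted p = 0.010) were called as well. The fit of all groups together, without a block, gave these entries adjusted p of 0.064 and 0.066. That fit differs in its arrays as well as in the block, so the part of the block alone was not tested. No label pairs these arrays, and wild type and double loss lay on different chips. The median log2 fold changes of the members in Lin28b loss and double loss against wild type were -0.019 and 0.087, beside 0.00022 and -0.0069 over all entries.

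The interaction, which asks whether the effect of losing Lin28a differed with Lin28b, was called for 13 entries, or 35.1%, against 37.7% of all entries. It was above 0 for 10, or 27% against 17.7%, and below 0 for 3, or 8.11% against 20.1%. For 3 entries, Eif4e, Eif4g2 and Eif5, it was called and 2-fold or more by measured values (8.11% against 11.5%). With double loss at the floor that of Eif4e was -0.51, which leaves 2. The median was 0.12 beside 0.0024 over all entries. Median scaling in place of quantile normalization ended 34 of the 50 calls made over the 5 comparisons and turned the sign of 1, and 15 remained. Those are Eif4e in its 3 comparisons, Eif5, Eif2b2 and Eif3l in the interaction, Eif5 and Eif2b2 in Lin28a loss, Eif1b and Eif3l in double loss minus Lin28b loss, Eif6 in the interaction, Eif3c, Eif1ad and Eif2b3 in Lin28b loss, and Eif4ebp2 in double loss. Every other call of an initiation factor in these 5 comparisons was lost under median scaling, and that of Eif4g1 in double loss minus Lin28b loss turned from -0.25 to 0.0017. With median scaling the median of all entries tested moved to -0.22 in Lin28b loss and -0.13 in double loss against wild type.

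Eif4e was the member that went from above background in all other groups to not above it in double loss, and Eif1b is the member that rose with Lin28a loss in both backgrounds, so the bases before their starts are shown together with those of Eif4g1. Of the members given in every sample, these 3 were called in at least 1 of the 5 comparisons and hold the hexamer CACGTG, an E-box of the kind bound by Myc and related factors, in the 250 bases before an annotated start. Eif4a1, called in none of the 5, and Eif5a, called only with the chip as a block, hold it too and are not shown. The sequences are RefSeq's on GRCm38.p6, 5′ to 3′ on the gene's strand, with the hexamer in capitals. The window of Eif4e lies at chr3:138527018-138527267, Eif1b at chr9:120492356-120492605 and Eif4g1 at chr16:20672477-20672726, all on the plus strand.
Eif4e: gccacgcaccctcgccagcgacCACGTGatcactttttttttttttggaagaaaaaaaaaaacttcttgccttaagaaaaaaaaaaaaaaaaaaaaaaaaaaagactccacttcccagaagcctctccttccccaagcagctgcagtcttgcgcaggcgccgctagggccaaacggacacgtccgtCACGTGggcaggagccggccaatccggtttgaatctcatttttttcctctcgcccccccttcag
Eif1b: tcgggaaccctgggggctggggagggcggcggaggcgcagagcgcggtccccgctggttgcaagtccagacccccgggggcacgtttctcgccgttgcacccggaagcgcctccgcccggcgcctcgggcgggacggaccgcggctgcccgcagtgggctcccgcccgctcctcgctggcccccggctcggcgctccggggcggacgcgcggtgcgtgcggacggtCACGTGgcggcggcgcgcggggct
Eif4g1: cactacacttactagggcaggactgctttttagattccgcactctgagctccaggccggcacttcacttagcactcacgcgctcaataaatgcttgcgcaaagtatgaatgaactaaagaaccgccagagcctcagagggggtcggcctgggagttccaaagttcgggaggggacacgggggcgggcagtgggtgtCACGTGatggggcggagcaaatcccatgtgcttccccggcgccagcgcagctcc
In Eif4e the hexamer begins 228 and 64 bases before the start, in Eif1b 24 bases and in Eif4g1 54 bases before it. The hexamer reads the same on both strands, and no other motif was searched. Among 32 member genes with a window 9 held it (28.1%), where 6.86% of all 27025 genes with a window did, whether or not they were tested here. The hexamer was chosen with the results in view, and the difference between these shares was not tested. A match describes these letters only, and the members that hold it did not move one way: Eif4e fell and Eif1b rose in double loss minus Lin28b loss. Eif3f by both entries, Eif3k, Eif4a1, Eif4h and Eif5a hold it and changed in none of the 5 comparisons, and Eif5a2, which holds it, was not tested.

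The eIF1 family helps the scanning ribosome choose its start codon. Of its 4 entries Eif1ax was not tested. Eif1b, a close relative of eIF1, read normalized log2 intensities of 10.04, 10.06 and 10.02 in wild type and 10.50, 10.51 and 10.72 in Lin28a loss. On the other chip it read 9.71, 9.60 and 9.56 in Lin28b loss and 10.41, 10.39 and 10.28 in double loss. No sample of a group with Lin28a lost overlapped with a sample of the group on the same chip that kept it. Eif1b rose 1.45-fold in Lin28a loss (log2 fold change 0.54 ± 0.089, SE; n = 3 per group here and below; limma adjusted p = 4.98e-04) and 1.67-fold in double loss against Lin28b loss (0.74 ± 0.089, adjusted p = 4.37e-05). The 2 effects were not called different (interaction 0.20 ± 0.13, adjusted p = 0.24). Across chips it was lower in Lin28b loss (-0.41 ± 0.089) and higher in double loss (0.32 ± 0.089) than in wild type.

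Eif1a, which sits in the decoding site of the scanning ribosome, rose in double loss against Lin28b loss (0.42 ± 0.14, adjusted p = 0.034) and had a positive interaction (0.64 ± 0.20, adjusted p = 0.022). The first call was lost without Lin28b-loss array 2 or 3 or double-loss array 1 or 2, or with no filter on dim entries, at adjusted p from 0.063 to 0.11, and the interaction without Lin28a-loss array 1 or 2 or Lin28b-loss array 2 or 3, or with no filter on dim entries, at adjusted p from 0.0507 to 0.056. Eif1ad, a protein with an eIF1A-like domain, read 10.33, 10.52 and 10.47 in wild type, 10.08, 10.41 and 10.22 in Lin28a loss, 10.04, 10.14 and 10.13 in Lin28b loss and 10.08, 10.30 and 10.39 in double loss. Its samples of Lin28b loss all lay below those of wild type. It was lower by 0.34 ± 0.11 in that comparison alone (adjusted p = 0.028), a call lost without wild-type array 2 or 3 or Lin28b-loss array 1, 2 or 3, at adjusted p from 0.057 to 0.091, and under median scaling the value was -0.63.

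**Figure D2:**
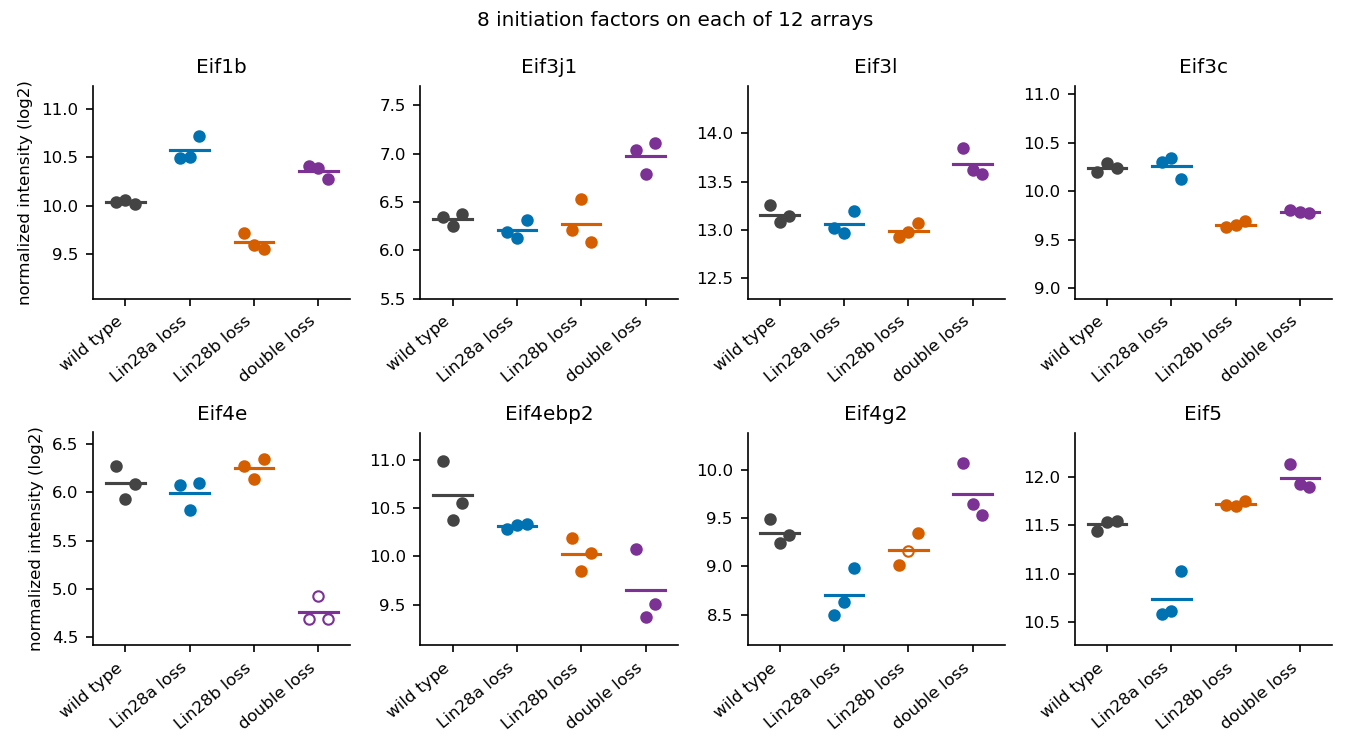
Normalized log2 intensity (vertical axis, each panel spanning the same range) of 8 initiation factors on the 12 arrays, by group. Points are arrays, bars are group means, and open points were not above background; Eif4e in double loss, at 4.69, 4.92 and 4.69, is the group standing apart from the rest of its panel.

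eIF2 carries the initiator tRNA, and its alpha subunit is the target of the stress kinases. That subunit, Eif2s1, was above background on no array. Eif2s2, the beta subunit, read 11.89, 11.75 and 11.85 in wild type and 12.09, 12.11 and 12.21 in Lin28a loss, with no overlap. In Lin28b loss it read 12.02, 11.94 and 11.86 and in double loss 12.08, 11.87 and 11.90, which overlapped with each other. It rose 1.24-fold in Lin28a loss (0.31 ± 0.09, adjusted p = 0.017), a call lost without wild-type array 2, or with only the 6 arrays compared, at adjusted p from 0.060 to 0.067.

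All 5 subunits of eIF2B, the exchange factor that recharges eIF2, were tested, and they did not move as a unit. In Lin28a loss 1 rose and 2 fell, where 18.2% and 18.6% of all entries did. In double loss against Lin28b loss 1 rose, where 16.9% of all entries did. For all 5 the interaction was called, as it was for 37.7% of all entries. It was above 0 for the 3 regulatory subunits Eif2b1, Eif2b2 and Eif2b4 and below 0 for the catalytic pair Eif2b3 and Eif2b5. Under median scaling only the interaction call of Eif2b2 held, and the values of Eif2b3 and Eif2b5 were -0.23 and -0.07. Eif2b2, the beta subunit, read 9.42, 9.69 and 9.59 in wild type and 8.999, 9.14 and 8.78 in Lin28a loss, all 3 of the latter lower. In Lin28b loss it read 9.55, 9.67 and 9.83 and in double loss 9.48, 9.80 and 9.73, with overlap. It fell by 0.59 ± 0.12 on the log2 scale in Lin28a loss (adjusted p = 0.0023), against a value of -0.015 ± 0.12 without Lin28b (interaction 0.58 ± 0.17, adjusted p = 0.019, lost without Lin28b-loss array 1 or double-loss array 2, at adjusted p from 0.0515 to 0.0548).

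Eif2b3, the gamma subunit, went the other way in Lin28a loss: it read 10.56, 10.84 and 10.74 in wild type and 11.11, 11.09 and 11.07 in Lin28a loss. In Lin28b loss it read 10.46, 10.34 and 10.49 and in double loss 10.22, 10.42 and 10.36. Every Lin28a-loss sample was above every sample of the other 3 groups. Eif2b3 rose by 0.38 ± 0.094 (adjusted p = 0.0071) and was lower than wild type in double loss (-0.38 ± 0.094, adjusted p = 0.0071) and in Lin28b loss (-0.28 ± 0.094, adjusted p = 0.032, lost without wild-type array 2 or 3 or Lin28b-loss array 1, 2 or 3, or with only the 6 arrays compared, at adjusted p from 0.0511 to 0.12; -0.59 under median scaling). Its interaction was -0.47 ± 0.13 (adjusted p = 0.014).

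Eif2b5, the epsilon subunit that carries the exchange activity, read 12.18, 12.08 and 12.14 in wild type, 12.37, 12.33 and 12.38 in Lin28a loss, 12.19, 12.21 and 12.37 in Lin28b loss and 12.27, 12.08 and 12.02 in double loss. Neither Lin28a effect was called (0.23 ± 0.09 and -0.13 ± 0.09), and their difference just passed (-0.36 ± 0.13, adjusted p = 0.043). That call was lost without wild-type array 2 or 3, Lin28a-loss array 1, 2 or 3, Lin28b-loss array 1, 2 or 3 or double-loss array 2 or 3, under cyclic loess or with the replicate block, at adjusted p from 0.0510 to 0.12. Eif2b1, the alpha subunit, fell in Lin28a loss (-0.32 ± 0.10, adjusted p = 0.026, lost without wild-type array 2 or 3 or Lin28a-loss array 1 or 3, or with only the 6 arrays compared, at adjusted p from 0.0520 to 0.082) and had an interaction of 0.55 ± 0.14 (adjusted p = 0.0087). Eif2b4, the delta subunit, was higher in double loss than in Lin28b loss (0.31 ± 0.084, adjusted p = 0.012) and than in wild type (0.28 ± 0.084, adjusted p = 0.018, lost without wild-type array 1, at adjusted p 0.055). The interaction of Eif2b4 (0.35 ± 0.12, adjusted p = 0.032) was lost without wild-type array 2 or 3, Lin28a-loss array 1 or 2, Lin28b-loss array 1 or 2 or double-loss array 1, 2 or 3, at adjusted p from 0.0525 to 0.077.

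**Figure D3:**
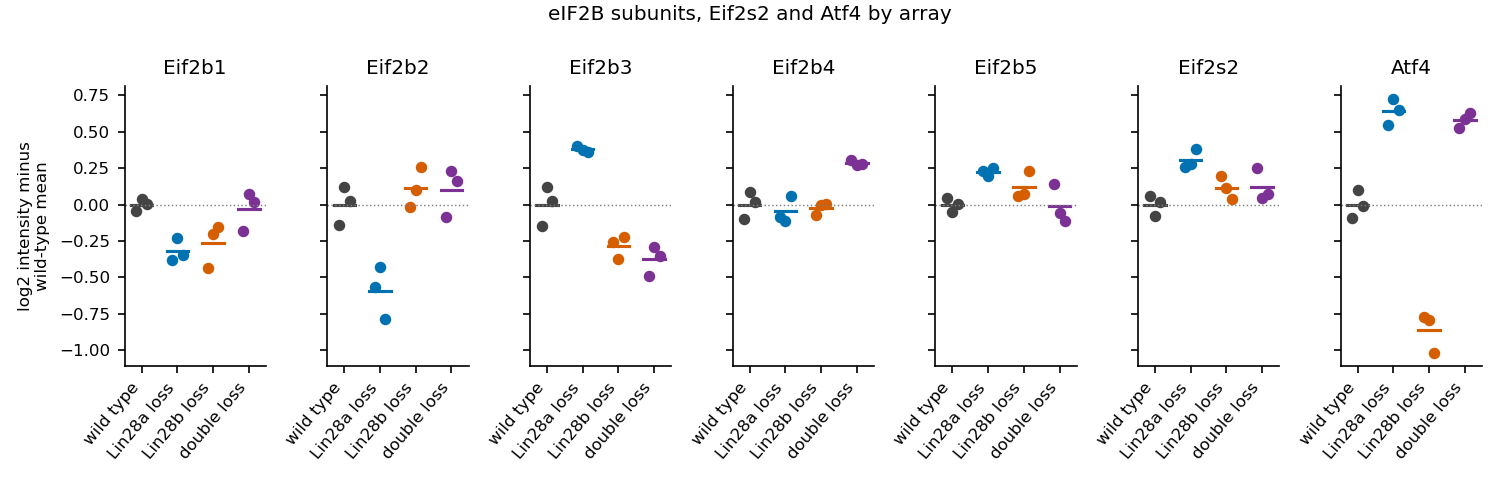
Log2 intensity on each array minus the wild-type mean of the same gene (vertical axis) for the 5 eIF2B subunits, Eif2s2 and Atf4, by group. Points are arrays and bars group means; in Lin28a loss Eif2b2 lies below and Eif2b3 above the wild-type arrays, and Atf4 spans a wider range over the groups than any of these subunits.

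Atf4, whose mRNA is translated more when eIF2 is phosphorylated, was read as the first gene of a list of 11 genes downstream of eIF2. Its log2 intensities were 11.24, 11.44 and 11.33 in wild type, 11.88, 12.06 and 11.99 in Lin28a loss, 10.56, 10.54 and 10.32 in Lin28b loss and 11.86, 11.92 and 11.96 in double loss, with no overlap between Lin28b loss and any other group. Of the 11 genes 9 rose and 1 fell in Lin28a loss, where 18.2% of all entries rose and 18.6% fell, with a median log2 fold change of 0.77 beside -0.03 over all entries. The gene that fell there was Ppp1r15a (-0.59 ± 0.095, limma adjusted p = 4.03e-04). In double loss against Lin28b loss 3 rose and 2 fell, where 16.9% and 19.5% of all entries did, with a median of 0.12. The array reads mRNA, and the phosphorylation of eIF2 was not measured.

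eIF3 is the largest initiation factor and holds the other factors on the small subunit. Of its 17 entries 12 entries of 10 genes were tested. In Lin28a loss 0 rose and 1 fell, where 18.2% and 18.6% of all entries did. In double loss against Lin28b loss 2 rose and 0 fell, where 16.9% and 19.5% of all entries did. Those 2 were Eif3l, a peripheral subunit (Eif3eip in the file), and Eif3j1, a loosely attached subunit near the decoding site (Eif3s1 in the file). Eif3l read 13.26, 13.08 and 13.14 in wild type, 13.03, 12.97 and 13.20 in Lin28a loss and 12.93, 12.98 and 13.07 in Lin28b loss, against 13.84, 13.62 and 13.57 in double loss. Each double-loss sample was above each of the other 9. The rise over Lin28b loss was 1.61-fold (0.69 ± 0.10, adjusted p = 1.92e-04), and that over wild type 0.52 ± 0.10 (adjusted p = 0.0014). With Lin28b intact the effect of Lin28a loss was -0.10 ± 0.10 (interaction 0.78 ± 0.14, adjusted p = 9.46e-04).

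Eif3j1 was likewise brightest in double loss, with 6.35, 6.26 and 6.38 in wild type, 6.19, 6.13 and 6.32 in Lin28a loss, 6.21, 6.53 and 6.09 in Lin28b loss and 7.03, 6.79 and 7.11 in double loss. The 3 double-loss samples again lay above all others. It rose 1.63-fold over Lin28b loss (0.70 ± 0.12, adjusted p = 7.28e-04) and by 0.65 ± 0.12 over wild type (adjusted p = 0.0012), with an interaction of 0.82 ± 0.17 (adjusted p = 0.0026).

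Eif3c, a core subunit (Eif3s8 in the file), split by chip instead. It read 10.20, 10.29 and 10.24 in wild type and 10.30, 10.35 and 10.13 in Lin28a loss, against 9.63, 9.65 and 9.69 in Lin28b loss and 9.81, 9.79 and 9.78 in double loss. All 6 samples of the second chip were below all 6 of the first, so Lin28b loss and chip cannot be told apart here. Eif3c was lower by 0.59 ± 0.082 in Lin28b loss (adjusted p = 1.33e-04) and by 0.45 ± 0.082 in double loss (adjusted p = 9.03e-04). Within chips its values were 0.013 ± 0.082 and 0.14 ± 0.082, neither called.

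Eif3b, the core subunit beside it, fell by 0.35 ± 0.13 in Lin28a loss at an adjusted p of 0.0472. That call was lost without wild-type array 1, 2 or 3, Lin28a-loss array 1 or 3, Lin28b-loss array 2 or double-loss array 2 or 3, under cyclic loess, with no filter on dim entries, with only the 6 arrays compared, with array weights, with the replicate block or without the 3 brightest arrays, at adjusted p from 0.0501 to 0.16. The other 8 tested entries, Eif3d, both of Eif3f, both of Eif3g, Eif3h, Eif3i and Eif3k, changed in none of the 5 comparisons. Eif3f, measured by 2 entries, read 0.045 ± 0.077 and -0.016 ± 0.10 in double loss against Lin28b loss, and Eif3g 0.11 ± 0.08 and 0.21 ± 0.077 (adjusted p = 0.0502 for the last). Eif3h, a subunit read near background, had an SD of 0.53 in double loss.

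Among the entries of the RNA helicase eIF4A and its cofactors, only Eif4a3 changed in any of the 5 comparisons. Eif4a1, the main helicase, read 13.63, 13.60 and 13.62 in wild type, 13.44, 13.49 and 13.46 in Lin28a loss, 13.74, 13.68 and 13.78 in Lin28b loss and 13.62, 13.74 and 13.79 in double loss. Its Lin28a-loss samples lay below those of wild type, a difference that did not pass (-0.15 ± 0.078, adjusted p = 0.14). Eif4a2, Eif4b and Eif4h changed in no comparison, and Eif4a2, which combines several probes, had an SD of 0.50 in wild type. Eif4a3, which belongs to the exon junction complex rather than to initiation itself, fell in Lin28a loss (-0.39 ± 0.14, adjusted p = 0.043). Its call was lost without wild-type array 2 or 3, Lin28a-loss array 1 or 3, Lin28b-loss array 1, 2 or 3 or double-loss array 2 or 3, with no filter on dim entries, with only the 6 arrays compared or with array weights, at adjusted p from 0.0504 to 0.15.

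Eif4e, the cap-binding protein whose supply limits cap-dependent initiation, was above background on all 9 arrays of the other groups and on none of double loss. It read 6.27, 5.93 and 6.09 in wild type and 6.07, 5.81 and 6.10 in Lin28a loss. In Lin28b loss it read 6.27, 6.14 and 6.35, and in double loss 4.69, 4.92 and 4.69. Every double-loss sample was below every sample of the other groups. The raw signals in double loss were 53.4, 54.8 and 45.7, with bead standard errors of 2.84, 2.13 and 1.65, where the lowest signals above background on those arrays were 76.6, 73.5 and 63.2. In Lin28b loss the raw signals were 91, 89.7 and 104.

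Because double loss gave no signal above background, its difference is a bound. Eif4e was at least 1.53-fold lower in double loss than in Lin28b loss and at least 1.38-fold lower than in wild type. The limma adjusted p of 1.24e-06 and 2.78e-06 belong to the measured differences, and the bounds themselves were not tested. The bound sets the mean of the brighter group against the lowest signal above background on each double-loss array. The measured means were 6.25 ± 0.11 in Lin28b loss and 6.10 ± 0.17 in wild type against 4.77 ± 0.14 in double loss (SD). With Lin28b intact, Lin28a loss gave -0.10 ± 0.12 (adjusted p = 0.54), and the measured interaction was -1.38 ± 0.17 (adjusted p = 4.39e-05). This single-probe entry was dim throughout, and its calls held under all alternatives tried in which it was tested. With an offset of 50 in place of 16, which compresses dim signals, the measured difference between double loss and Lin28b loss was -0.86 in place of -1.49.

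**Figure D4:**
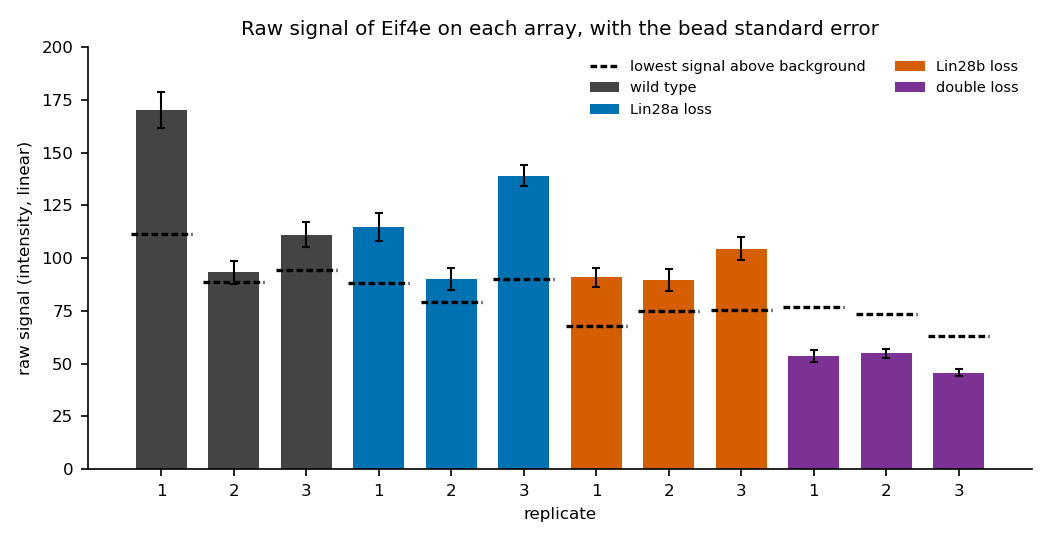
Raw signal of Eif4e (vertical axis, linear intensity from 0) on each of the 12 arrays by group and replicate, before any correction. Error bars are the bead standard error within an array, and the dashed line on each bar is the lowest signal above background on that array; the 3 double-loss bars lie below their lines and the other 9 above.

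Eif4e2, which encodes a cap-binding protein that does not bind eIF4G and represses translation, was measured by 2 entries. By the entry of that name it read 8.43, 9.13 and 8.91 in wild type, 8.13, 8.47 and 8.27 in Lin28a loss, 9.24, 9.44 and 9.28 in Lin28b loss and 9.02, 9.28 and 9.39 in double loss. By the second entry (Eif4el3) it read 12.17, 12.24 and 12.26 in wild type, 11.62, 11.79 and 12.03 in Lin28a loss, 12.34, 12.36 and 12.27 in Lin28b loss and 12.45, 12.42 and 12.45 in double loss. In the first entry 1 wild-type sample lay within the range of Lin28a loss, and in the second none did. Both fell in Lin28a loss (-0.53 ± 0.16, adjusted p = 0.022, and -0.41 ± 0.10, adjusted p = 0.0063). The first call was lost without wild-type array 2 or 3 or Lin28a-loss array 1, with no filter on dim entries or with only the 6 arrays compared, at adjusted p from 0.059 to 0.095. The entries parted in Lin28b loss against wild type, where the first was higher (0.50 ± 0.16, adjusted p = 0.031, lost without wild-type array 1 or Lin28b-loss array 1, 2 or 3, with no filter on dim entries or without the 3 brightest arrays, at adjusted p from 0.0525 to 0.11) and the second was not called (0.094 ± 0.10, adjusted p = 0.50). They parted in the interaction too, called for the second (0.53 ± 0.14, adjusted p = 0.011) and not for the first (0.45 ± 0.23, adjusted p = 0.15).

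The scaffolds of the eIF4 complex differed from each other. Eif4g2, a relative of eIF4G without the eIF4E-binding part that serves initiation independent of the cap, read 9.49, 9.24 and 9.32 in wild type and 8.500, 8.63 and 8.99 in Lin28a loss. In Lin28b loss it read 9.02, 9.16 and 9.34 and in double loss 10.07, 9.64 and 9.54. The groups did not overlap on either chip, Lin28a loss being lower on the first and double loss higher on the second. Eif4g2 fell 1.56-fold in Lin28a loss (-0.64 ± 0.16, adjusted p = 0.0064) and rose 1.49-fold in double loss against Lin28b loss (0.58 ± 0.16, adjusted p = 0.012, lost without Lin28b-loss array 1, at adjusted p 0.056). The interaction was 1.22 ± 0.22 (adjusted p = 9.67e-04), above 0 and the largest of that sign among the members.

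Eif4g1, the main scaffold, read 10.57, 10.64 and 10.64 in wild type, 10.43, 10.64 and 10.37 in Lin28a loss, 10.91, 10.93 and 10.99 in Lin28b loss and 10.72, 10.64 and 10.72 in double loss. Its Lin28b-loss samples were above all others. It was higher there than in wild type (0.33 ± 0.088, adjusted p = 0.012; 0.014 under median scaling). In double loss it fell by 0.25 ± 0.088 against Lin28b loss (adjusted p = 0.042), a call lost without wild-type array 2 or 3, Lin28b-loss array 1, 2 or 3 or double-loss array 1, 2 or 3, under cyclic loess or with the replicate block, at adjusted p from 0.0548 to 0.14.

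Proteins that bind eIF4E and keep it from eIF4G moved apart as well. Eif4ebp1, the best known of them, read 13.31, 13.68 and 13.58 in wild type and 13.87, 13.998 and 13.79 in Lin28a loss. In Lin28b loss it read 13.38, 13.60 and 13.58 and in double loss 13.40, 13.67 and 13.56, which overlapped. It rose 1.28-fold in Lin28a loss, where every sample was above every wild-type sample (0.36 ± 0.12, adjusted p = 0.029). That call was lost without wild-type array 1 or 3 or Lin28a-loss array 1 or 2, with no filter on dim entries or with only the 6 arrays compared, at adjusted p from 0.0503 to 0.10.

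Eif4ebp2 had its highest mean in wild type and its lowest in double loss. It read 10.99, 10.38 and 10.55 in wild type, 10.29, 10.33 and 10.34 in Lin28a loss, 10.19, 9.85 and 10.04 in Lin28b loss and 10.07, 9.37 and 9.50 in double loss. Its highest value in wild type and in double loss was that of replicate 1, the array with the highest mean signal of each of these groups, and the SDs, in which the part of that array was not tested, were 0.32 and 0.37. Against wild type it was lower by 0.99 ± 0.18 in double loss (adjusted p = 0.0010) and by 0.61 ± 0.18 in Lin28b loss (adjusted p = 0.019, lost without wild-type array 1 or Lin28b-loss array 2 or 3, or with no filter on dim entries, at adjusted p from 0.0509 to 0.080). Within chips neither Lin28a effect was called (-0.32 ± 0.18 and -0.38 ± 0.18). Eif4enif1, the nuclear transporter of eIF4E, changed in no comparison.

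**Figure D5:**
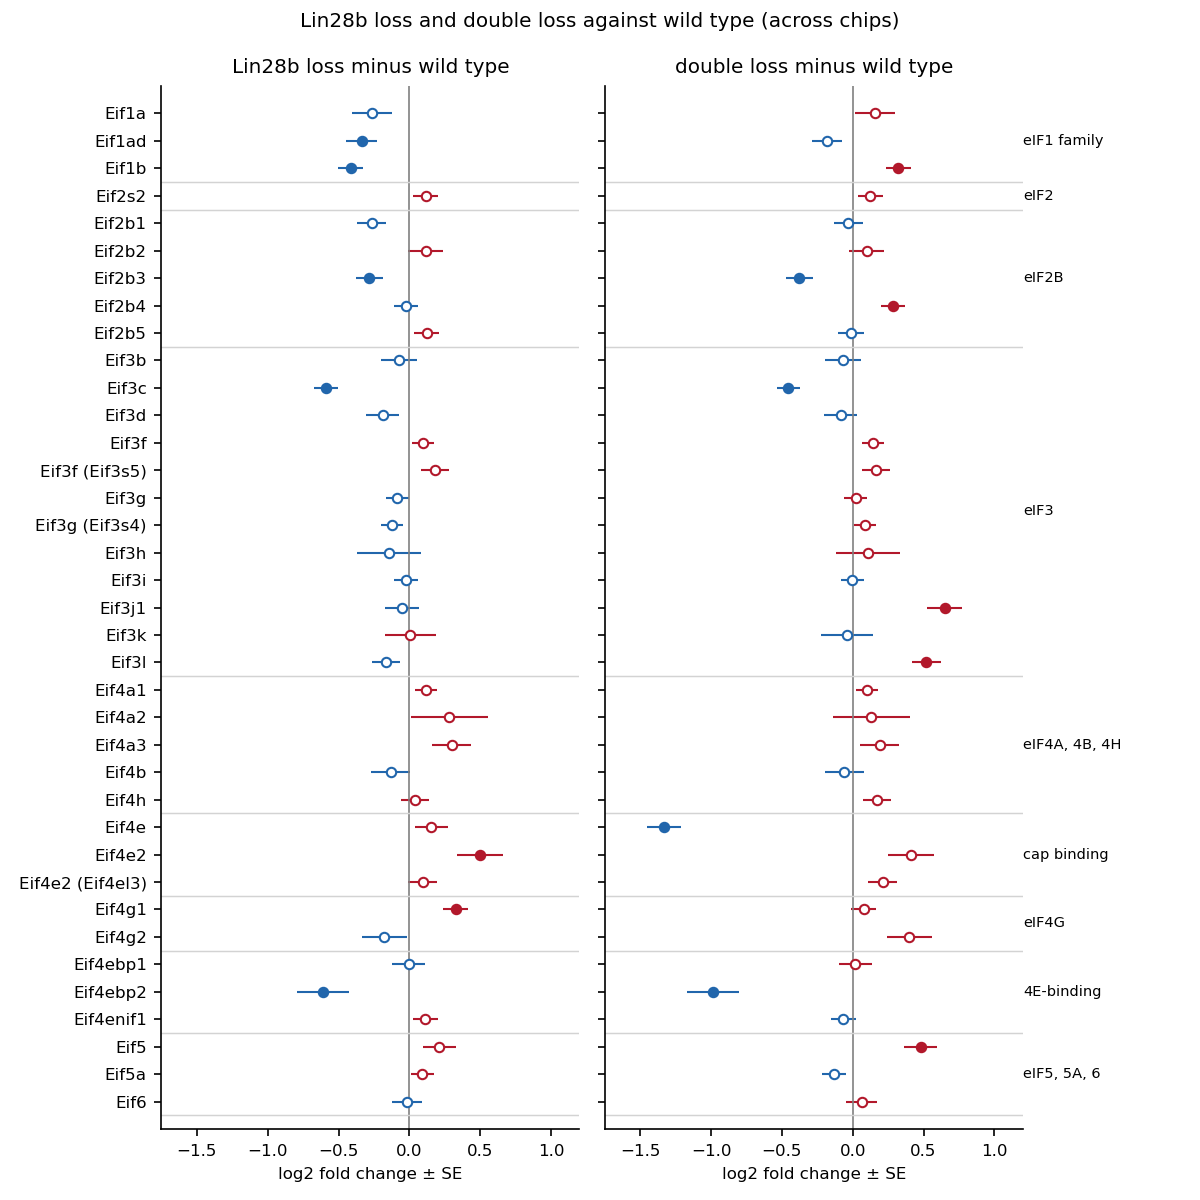
Log2 fold change ± SE (horizontal axis) of the 37 tested entries in Lin28b loss (left) and double loss (right) against wild type, grouped by complex; both comparisons cross chips and share the wild-type samples. Filled points passed the test; Eif3c and Eif4ebp2 lie below 0 in both panels, and Eif4e only on the right, at -1.33.

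Eif5, which triggers GTP hydrolysis on eIF2 once the start codon is found, fell most among the members in Lin28a loss. It read 11.44, 11.53 and 11.55 in wild type and 10.58, 10.61 and 11.02 in Lin28a loss, without overlap. On the other chip it read 11.71, 11.70 and 11.75 in Lin28b loss and 12.14, 11.93 and 11.90 in double loss, also without overlap and in the opposite order. The fall in Lin28a loss was 1.71-fold (-0.77 ± 0.12, adjusted p = 2.52e-04). The difference within the second chip did not pass (0.27 ± 0.12, adjusted p = 0.093), and the interaction did (1.04 ± 0.17, adjusted p = 3.73e-04). Double loss was above wild type by 0.48 ± 0.12 (adjusted p = 0.0062).

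Eif6, which keeps the large ribosomal subunit from joining early, read 12.03, 12.07 and 12.05 in wild type, 11.56, 11.79 and 11.60 in Lin28a loss, 11.90, 12.05 and 12.15 in Lin28b loss and 11.92, 12.23 and 12.19 in double loss. All Lin28a-loss samples were below all other samples. It fell by 0.40 ± 0.11 in Lin28a loss (adjusted p = 0.010), with an interaction of 0.48 ± 0.15 (adjusted p = 0.024, lost without Lin28a-loss array 1, Lin28b-loss array 1 or double-loss array 2 or 3, at adjusted p from 0.057 to 0.066; 0.78 under median scaling). Eif5a, the hypusine-carrying factor that eases peptide bond formation, read 12.43, 12.34 and 12.28 in wild type, 12.14, 12.20 and 12.17 in Lin28a loss, 12.38, 12.40 and 12.55 in Lin28b loss and 12.24, 12.16 and 12.26 in double loss. It was lower with Lin28a lost on both chips without overlap, by values that were each not called (-0.18 ± 0.083, adjusted p = 0.11, and -0.22 ± 0.083, adjusted p = 0.0524), and that passed with the chip as a block, as given above.

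Regulators of initiation outside the family were read from a list of 37 genes, of which 26 entries of 25 genes were tested. In Lin28a loss 1 of these rose and 8 fell, and in double loss against Lin28b loss 4 rose and 1 fell, where 18.2% and 18.6% of all entries rose and fell in the first and 16.9% and 19.5% in the second, with medians of -0.018 and 0.12. Eif2ak2, the kinase PKR that acts on eIF2, was among those that fell in Lin28a loss (-1.35 ± 0.12, adjusted p = 2.50e-06), where its value without Lin28b was 0.13 ± 0.12 and the interaction 1.48 ± 0.17 (adjusted p = 2.85e-05). Pdcd4, which binds eIF4A and holds back unwinding, rose in double loss against Lin28b loss (0.69 ± 0.10, adjusted p = 2.37e-04) and read 0.14 ± 0.10 in Lin28a loss. Against the same shares of all entries, of 17 tested entries of elongation and termination factors none rose and 3 fell in Lin28a loss, and 2 rose and 1 fell in double loss against Lin28b loss.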

How the data were processed

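Gene expression was read from a deposited gene-level table with 1 array for each of 12 samples. Per the file headers, its signals are intensities on a linear scale from GenomeStudio (GSGX 1.9.0), neither background subtracted nor normalized, and each detection p-value comes from the same export, as do the deposited bead standard errors. Further columns with per-sample values, 60 in all, were left unused, among them 12 of a normalized table whose columns carry only numbers and 12 of a probe table.

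Background was derived array by array from detection p, using 23306 single-probe entries whose p are multiples of 1 in 936, the negative control bead types (to within 0.006 of a whole number). Correction by normexp with an added offset of 16 was followed by log2 and quantile normalization (limma 3.58.1, R 4.3.3). Any entry that had detection p under 0.01 throughout 1 or more groups of 3 arrays was tested with lmFit and eBayes on all 12 arrays, with p-values adjusted by Benjamini-Hochberg over 10372 entries. All entries were kept; the alternative of 1 per symbol leaves 9920. No 2 arrays were identical, and precision is limited by 3 arrays per group. On simulated data for Lin28a loss minus wild type over 10372 entries, 91 of 100 changes of 1 and 48 of 100 of 0.5 on the log2 scale were recovered, with 6 false calls. Only those entries were changed, and the noise was drawn independently for each array. In the data 36.8% of entries were called in that comparison and some arrays deviated together, so these rates may not carry over. Figures were drawn with matplotlib 3.10.9 (Python 3.11.15).

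Of the 49 entries 38 took their name from an Entrez identifier, 4 from a symbol and 7 from a synonym in a RefSeq table (GRCm38.p6). Members given in every sample were the 4 largest called rises and falls of each of the 5 comparisons and, where tested, Eif4ebp1, Eif4e, Eif4g1, Eif4g2, Eif4a1, Eif2s1, Eif2b5, Eif3a, Eif5a, Eif6 and Eif1, with both entries of a gene. The members, lists and rule were chosen with earlier results of these data known, and the hexamer was chosen with the results in view. No label says that a replicate number marks a shared batch. Same-numbered arrays of wild type and double loss deviated together in all 3 pairs (r of 0.69, 0.57 and 0.25 across entries), and in none of the other 5 pairs of groups was every r over 0.1. The numbers were therefore taken to pair those 2 groups alone. Alternatives tried were other scalings, offsets, filters, array weights, the replicate number as a block, and leaving out arrays.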

Additional observations from a re-analysis of the deposited data

Results flagged for a closer look

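The effect of Lin28a loss differed between cells with and without Lin28b, by limma's interaction test, for 13 entries. These were 35.1% of the tested members, against 37.7% of all entries, and 5 of them held under median scaling. The value is the log2 effect within the Lin28b-loss background minus that within the wild-type background, and an additive chip effect cancels in it. It was above 0 for Eif4g2 (1.22), Eif5 (1.04), Eif3j1 (0.82), Eif3l (0.78), Eif1a (0.64), Eif2b2 (0.58), Eif2b1 (0.55), the second entry of Eif4e2 (0.53), Eif6 (0.48) and Eif2b4 (0.35). It was below 0 for Eif4e (-1.38), a measured value that is -0.51 with double loss, not above background, at its floor, Eif2b3 (-0.47) and Eif2b5 (-0.36). These differences rest on 1 line per genotype, and their cause was not tested.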

How the results depend on the processing

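Scaling decided most counts. Under median scaling the initiation factors called were 2 in Lin28a loss, 3 in double loss minus Lin28b loss, 3 in Lin28b loss, 2 in double loss and 5 in the interaction (0, 2, 0, 0 and 4 of them higher), and all entries 1460, 1294, 1800, 1784 and 1529, of which 1019, 668, 416, 495 and 582 were higher. Median scaling reversed Eif4g1 in double loss minus Lin28b loss (0.0017, adjusted p = 0.998). Array weights called 21, 13 and 15 initiation factors in double loss minus Lin28b loss, Lin28b loss and double loss (6012, 5911 and 6033 of all entries). A fit of only the 6 arrays compared called 7 in Lin28a loss (2917 of all entries). Without the brightest array of wild type, Lin28a loss and double loss, a setting chosen after seeing the data, 18 were called in double loss minus Lin28b loss and 11 in Lin28b loss (5086 and 4988 of all entries). Leaving out 1 array at a time gave 8 to 14 initiation factors in Lin28a loss, 6 to 10 in double loss minus Lin28b loss, 3 to 9 in Lin28b loss, 8 to 10 in double loss and 9 to 14 in the interaction, and 3028 to 4032, 2856 to 4144, 2920 to 4098, 3141 to 4150 and 3268 to 4329 of all entries. Deviations of same-numbered arrays correlated over 0.1 in 9 of 18 pairs (r from -0.57 to 0.69 across entries). With the replicate block over all 12 arrays, 12 were called in Lin28a loss, 9 in double loss minus Lin28b loss, 8 in Lin28b loss, 10 in double loss and 14 in the interaction. Of all entries that block called 3913, 3905, 3903, 3931 and 4029. With the block over wild type and double loss alone, chosen after seeing the data, 11 were called in double loss (5078 of all entries). Of the 50 calls 11 held under all alternatives tried, and 20 were lost under median scaling alone. Signal over background limits dim entries such as Eif4e.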

Other observations

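Outside the family, Bzw1, which encodes a protein that mimics eIF5 in binding eIF2, fell in Lin28a loss (log2 fold change -0.65 ± 0.19, SE, n = 3 per group; limma adjusted p = 0.016), read 0.33 ± 0.19 in double loss against Lin28b loss (adjusted p = 0.19) and had an interaction of 0.98 ± 0.27 (adjusted p = 0.011). Denr, part of a factor that recycles and restarts small subunits, fell in Lin28a loss (-0.52 ± 0.11, adjusted p = 0.0029) with an interaction of 0.76 ± 0.16 (adjusted p = 0.0024). Impact, an inhibitor of the eIF2 kinase Gcn2, rose there (0.52 ± 0.11, adjusted p = 0.0020) with an interaction of -0.77 ± 0.15 (adjusted p = 0.0015). Across chips, Denr was also lower (-0.49 ± 0.11, adjusted p = 0.0044) and Impact higher (0.47 ± 0.11, adjusted p = 0.0043) in Lin28b loss than in wild type. Mlst8, a subunit of mTOR complexes, was higher in double loss than in Lin28b loss (0.38 ± 0.10, adjusted p = 0.0082), as was Gspt2, a translation release factor (0.44 ± 0.12, adjusted p = 0.012). These genes were chosen after their values were seen. None of these calls of Bzw1, Denr, Impact, Mlst8 and Gspt2 held under median scaling (adjusted p from 0.059 to 0.67). That of Bzw1 in Lin28a loss was also lost with no filter on dim entries and without wild-type replicate 1 or Lin28a-loss replicate 1 or 2.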
